A study of Mus musculus with 33 samples.

Results

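The nuclear-encoded oxidative phosphorylation genes were taken from the 2 deposited gene tables by symbol: every gene whose symbol starts with Nduf, Uqcr, Cox4 to Cox8 or Atp5, the 4 genes Sdha to Sdhd, and Cycs and Cyc1. The rule found 89 genes of the 15988 genes in either table, of which 88 were among the 14613 genes of the epithelium table and 87 among the 14744 genes of the sorted neuron table. Of these, 86 were in both tables, Cox6b2 and Atp5l-ps1 were in the epithelium table alone, and Ndufa4l2 was in the sorted neuron table alone. Not every member is a subunit of a respiratory complex: the rule also takes in 4 assembly factors of complex I (Ndufaf1 to Ndufaf4), the subunit-like Atp5sl, Cox4nb, a symbol now replaced by Emc8 (a part of the membrane protein insertion complex of the endoplasmic reticulum), and the pseudogene Atp5l-ps1.

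The series studied the DNA methyltransferase Dnmt3a in the mouse nose, in mice of 3 weeks that carried 2 functional copies of Dnmt3a (WT), 1 null copy (Het) or 2 null copies (KO). Whole main olfactory epithelium, a mixture of sensory neurons, their precursors and supporting cells, gave 6 RNA libraries, 1 for each genotype after 60 min with filter paper carrying either 80 µL of water or the same volume of an odorant mixture (amyl acetate, acetophenone and octanal in equal parts), following 10 min of habituation. Mature olfactory sensory neurons isolated by flow sorting gave 2 RNA libraries per genotype, deposited as 1 pooled value per genotype. All RNA was depleted of ribosomal RNA, and the labels do not say how many mice went into a library. The null alleles are labelled for the whole animal, and no cell-type-specific driver is named. In both tables a value is the number of reads per 1000 bases of a gene-specific divisor, scaled by a factor per library; it carries no per-million term, so a value is comparable between the columns of 1 table and not with RPKM values elsewhere.

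Oxidative phosphorylation is carried out by 5 protein complexes of the inner mitochondrial membrane. Complexes I and II feed electrons from NADH and succinate into ubiquinone, complex III passes them to the small carrier cytochrome c, complex IV hands them to oxygen, and the proton gradient that results drives the ATP synthase. Most subunits are encoded in the nucleus and a few core subunits in the mitochondrial genome, and the nuclear genes are known for shared control by the transcription factors NRF1, GABP (an ETS factor) and YY1. Olfactory sensory neurons keep mitochondria in the dendrite, close to the cilia where odorants are detected. Of the 13 mitochondrially encoded protein genes searched for, 0 were found in either table by symbol, so only the nuclear share of each complex is described.

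The 6 epithelium libraries held 9448925 to 17713049 reads in genes, and the 6 neuron libraries recovered from the pooled values 7339411 to 20996500. Dnmt3a itself was 84.4 and 89.0 in the WT epithelium, 50.3 and 66.6 in Het and 56.1 and 48.3 in KO (water, then odor), and 174.7, 119.9 and 56.2 in WT, Het and KO sorted neurons; the value counts reads over the whole gene and the deleted stretch is not given in the sources used here. The odor libraries could be checked against the immediate-early genes Fos and Egr1, the only 2 genes of 14602 past the threshold for odor against water, which were 3.99 and 3.63 log2 units higher after odor (limma, adjusted p = 0.0454 and 0.0249; both were named after their values were seen). The epithelium libraries differed in cell content: the summed level of 12 mature sensory neuron markers was 25116 and 18816 for WT (water, odor), 10805 and 6288 for Het, and 21276 and 28043 for KO. The summed level of the 6 measured skeletal muscle markers was 20.7 to 65.9 in 5 libraries and 403.0 in KO odor. In whole tissue, fewer cells of a type and less RNA per cell cannot be told apart. In the sorted neurons the same 12 markers summed to 55602 to 100270 and the 8 supporting cell markers to 457.3 to 1879, against 27092 to 45556 in the epithelium.

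Promoter windows were available for 74 of the 89 genes (RefSeq, build GRCm38.p6; 250 bases before to 50 after the annotated start; the expression tables used an older build, so these windows are matched by gene name only). Some genes have several windows, and a match in any of them was counted for the gene. The NRF1 core GCATGCGC stood in 12 of the 74 genes (16.2%) on either strand. The share was 5.20% of the 11484 genes of the epithelium table that have a window and 3.05% of all 27025 genes with a window. The YY1 core AAGATGGCG stood in 8 (10.8%, against 2.93% and 1.639%) and the ETS core CCGGAAG in 17 (23.0%, against 16.7% and 9.93%). All were searched on both strands and none of the 3 contains another, and 31 genes (41.9%) had at least 1 of them. A match describes the letters and is no evidence of binding. The windows below show the motifs in context, in capitals: Cycs, which encodes cytochrome c, has an NRF1 core (chr6:50566520-50566819, minus strand). Cox6a1, a complex IV subunit, has an ETS core and overlapping NRF1 cores on both strands, which form 1 longer stretch of capitals (chr5:115348909-115349208, minus strand).
Cycs: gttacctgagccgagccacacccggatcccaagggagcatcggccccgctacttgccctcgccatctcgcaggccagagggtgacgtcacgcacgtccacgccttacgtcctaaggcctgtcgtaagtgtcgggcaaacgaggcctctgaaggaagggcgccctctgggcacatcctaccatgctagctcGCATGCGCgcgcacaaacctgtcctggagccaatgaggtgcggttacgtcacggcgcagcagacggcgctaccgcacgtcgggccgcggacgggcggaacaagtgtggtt
Cox6a1: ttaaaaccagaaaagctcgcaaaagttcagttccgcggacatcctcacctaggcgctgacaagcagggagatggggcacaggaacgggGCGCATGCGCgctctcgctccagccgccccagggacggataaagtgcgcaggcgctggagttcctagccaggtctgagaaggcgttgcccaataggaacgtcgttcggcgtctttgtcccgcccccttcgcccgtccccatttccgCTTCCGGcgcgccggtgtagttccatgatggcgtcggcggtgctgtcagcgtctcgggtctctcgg

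The second set shows isoform pairs that differ in CG content, with every CG dinucleotide, a site at which DNA methyltransferases act, in capitals. Cox7a2 and Cox8a are the widely expressed forms of 2 complex IV subunits, and Cox7a1 and Cox8b are the forms known from heart and skeletal muscle. The Cox7a2 window (chr9:79759804-79760103, minus strand) held 20 CG sites and Cox7a1 (chr7:30183921-30184220, plus strand) 7, and the ratio of observed to expected CG was 0.833 and 0.333. The Cox8a window (chr19:7217567-7217866, minus strand) held 19 CG sites and Cox8b (chr7:140900397-140900696, minus strand) 2, with ratios of 0.842 and 0.115. Over the 74 genes, with several windows of a gene averaged, the median ratio was 0.831. It was 0.709 for genes of the epithelium table and 0.390 for all genes with a window. Methylation at these windows was not analysed here.
Cox7a2: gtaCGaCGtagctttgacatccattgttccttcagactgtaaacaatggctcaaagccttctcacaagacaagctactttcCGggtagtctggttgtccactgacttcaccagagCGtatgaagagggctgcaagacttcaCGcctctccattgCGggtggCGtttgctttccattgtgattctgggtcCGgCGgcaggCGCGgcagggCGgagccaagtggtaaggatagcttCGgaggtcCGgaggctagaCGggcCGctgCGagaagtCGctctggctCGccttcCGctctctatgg
Cox7a1: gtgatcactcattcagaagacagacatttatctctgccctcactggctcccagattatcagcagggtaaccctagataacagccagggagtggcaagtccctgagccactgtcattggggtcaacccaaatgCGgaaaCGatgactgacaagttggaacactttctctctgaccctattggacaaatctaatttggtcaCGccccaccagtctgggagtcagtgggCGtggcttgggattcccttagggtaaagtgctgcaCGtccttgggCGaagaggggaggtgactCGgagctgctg
Cox8a: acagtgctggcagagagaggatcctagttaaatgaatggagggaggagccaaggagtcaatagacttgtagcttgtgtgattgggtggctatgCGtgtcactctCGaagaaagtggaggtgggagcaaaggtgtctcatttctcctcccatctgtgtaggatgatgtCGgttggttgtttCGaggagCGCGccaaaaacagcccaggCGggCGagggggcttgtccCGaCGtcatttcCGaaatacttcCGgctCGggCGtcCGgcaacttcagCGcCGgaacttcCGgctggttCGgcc
Cox8b: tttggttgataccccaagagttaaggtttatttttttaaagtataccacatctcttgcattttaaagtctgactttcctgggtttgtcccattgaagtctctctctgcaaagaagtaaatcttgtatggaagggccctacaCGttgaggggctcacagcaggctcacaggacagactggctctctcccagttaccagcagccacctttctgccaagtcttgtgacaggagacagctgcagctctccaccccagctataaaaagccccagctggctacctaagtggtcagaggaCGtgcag

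In the epithelium the genes stood high. Their median mean value over the 6 libraries was 285.4, against 43.5 for all genes (the 90.9th percentile), and 82 of 88 lay above the median gene. The divisor behind a value ranged from 312 to 9974 among the members and is not the length of 1 transcript, and long divisors went with low values (r = -0.43 between log2 value and log2 divisor over 88 genes), so the order of genes below depends on it. Many of these genes also have near-identical processed copies in the genome, and how the authors treated reads that fit several places is not given in the sources used here. The members varied about as much between libraries as other genes, with a median SD of 0.28 log2 units against 0.31.

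Complex I, which oxidises NADH, had a median of 107.1 for its 7 nuclear core subunits, which carry the redox centres, 248.4 for 29 accessory subunits and 137.1 for 4 assembly factors. Among core subunits Ndufs8, which binds iron-sulfur clusters, was highest (862.9, 648.1, 876.1, 1094.8, 829.8 and 611.9, in the order of WT, Het and KO with water before odor, which is used from here on). Ndufs3 was lowest (53.4, 33.2, 44.7, 50.7, 46.8 and 42.6). Every Ndufs8 library was more than 10 times the Ndufs3 library beside it. Among accessory subunits Ndufa6 was highest (1401, 1689, 2019, 1376, 1661 and 1569) and Ndufb2 lowest (43.1, 38.7, 35.0, 25.2, 41.4 and 40.4). Ndufaf1, an assembly factor, was the lowest of all members (13.3, 7.07, 32.9, 14.2, 14.1 and 14.8). Complex II, the succinate dehydrogenase shared with the citric acid cycle, was even, with its 4 subunits between a mean of 247.3 (Sdhc, a membrane anchor) and 545.7 (Sdhb, the iron-sulfur subunit). Ndufs4 stood apart in 1 library: it was 652.7 in WT water and 239.98 to 297.1 in the other 5.

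Complex III had a median of 389.6 over 9 genes, from Uqcrq (54.9, 38.6, 55.5, 46.7, 61.2 and 46.8) to Uqcrb (2521, 1925, 2660, 1983, 2860 and 1509). Cycs was 153.7, 165.2, 191.2, 117.0, 159.0 and 142.6. The 12 widely expressed complex IV subunits had the highest median of any complex, 1282, with Ndufa4, once assigned to complex I and now counted with complex IV, highest of all members (3668, 2871, 5447.5, 3276.5, 4055 and 2427). The lowest of the 12 was Cox6c (309.1, 273.6, 348.7, 266.4, 327.1 and 215.1), still above the median of the ATP synthase genes, 176.8 over 17. In that complex Atp5b, the catalytic beta subunit, was highest (937.4, 1027.3, 977.2, 1255.2, 948.3 and 942.5), and Atp5sl, named for its likeness to a subunit rather than being one, lowest (22.1, 21.9, 19.3, 22.4, 23.8 and 20.6). Over the 88 genes the highest library was a median of 1.69 times the lowest, and at least 2 times in 18. The lowest count of any member in an epithelium library was 9 reads (Cox7a1 in KO odor), and 13 members fell below 100 reads in an epithelium library.

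**Figure D1:**
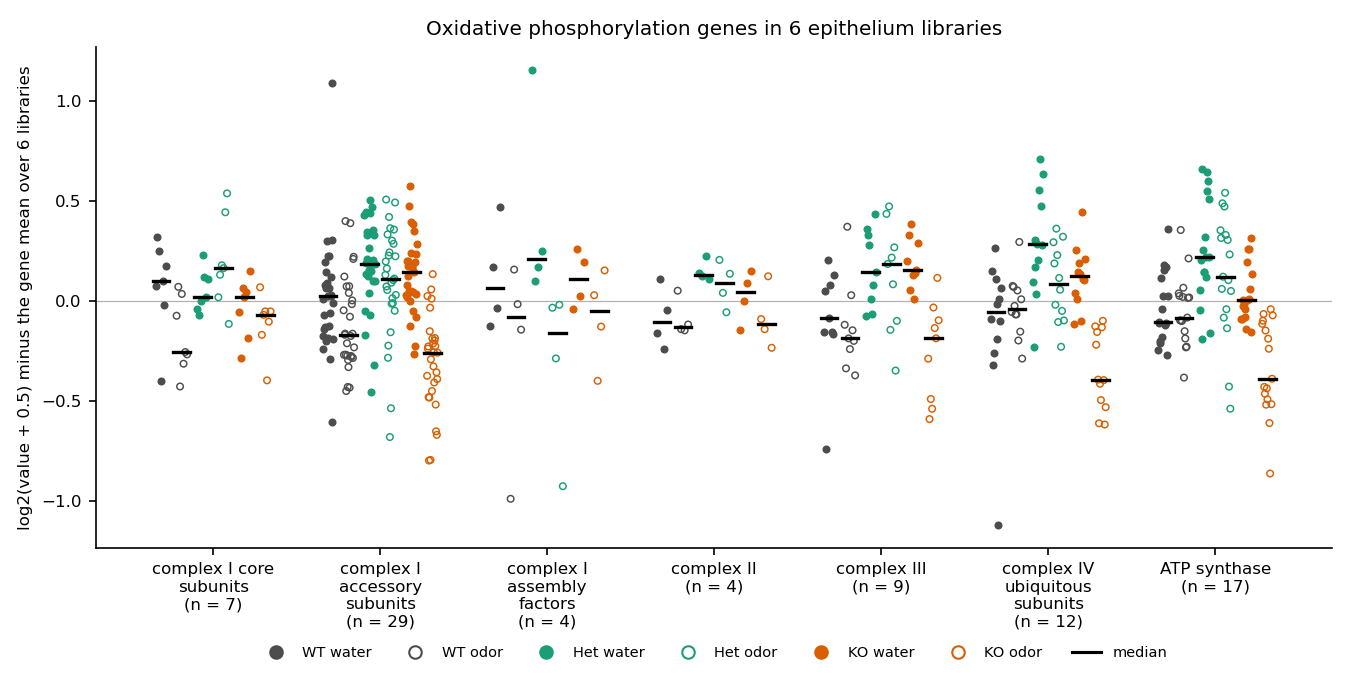
Each point is 1 gene in 1 epithelium library, as log2(value + 0.5) minus the gene's mean over the 6 libraries, grouped by complex, with filled points for water, open points for odor and a black bar at the median. The KO odor medians of complex IV (-0.39), ATP synthase (-0.39) and complex I accessory subunits (-0.26) are the lowest of their 6 libraries.

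Before the sorted neurons are described, their libraries need an account. Each pooled value of 13369 genes split exactly into the mean of 2 libraries, and the 2 libraries of a genotype differed in a way that recurred in every genotype: over the 13283 of these genes that are no members, the difference between the 2 libraries correlated at 0.71 (WT and Het), 0.71 (WT and KO) and 0.75 (Het and KO), across genes, which are not independent. The libraries are called type 1 and type 2 by that pattern. Across these genes type 1 libraries of different genotypes correlated at 0.954 to 0.968 and type 2 libraries at 0.913 to 0.943, while the 2 libraries of 1 genotype correlated at 0.832 to 0.894. The labels give one library kit (RiboMinus and ScriptSeq, 200 ng RNA) for both WT libraries, another (NuGEN Encore, 100 ng) for both KO libraries and 1 of each for Het, so the types do not follow the labelled kits; their cause was not tested. The kit and the genotype cannot be told apart between WT and KO.

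The members differed between the types by about as much as all genes did. Of 86 members, 15 (17.4%) were at least 2-fold higher in type 2 in all 3 genotypes, against 11.4% of all genes. At least 2-fold lower were 8 (9.30%), against 9.75% of all genes. Of the 15, 6 belong to complex IV and 1 to the ATP synthase. Cox6a1 was 354.4 and 3934 in the type 1 and type 2 libraries of WT, 535.5 and 3154 for Het and 309.5 and 2811 for KO. Cox7a2 was 698.1 and 4779 for WT, 871.6 and 5179 for Het and 411.2 and 4401 for KO. In both genes every type 2 library lay above every type 1 library, by at least 5.89-fold within a genotype. Atp5l, the g subunit of the ATP synthase membrane part, was 7.4- to 8.3-fold higher in type 2. In the other direction Cycs was 430.8 and 114.0 for WT, 451.6 and 109.3 for Het and 350.1 and 66.5 for KO, and Sdha, the catalytic flavoprotein of complex II, was 2.9- to 3.2-fold lower in type 2. The rest of the 8 were Sdhc, Cyc1, Ndufs1, Ndufv1, Atp5j and Cox7a2l. The type difference of a member had a median size of 0.84 log2 units (0.82 for all genes), more than the median size of the KO to WT difference of the pooled values, 0.39, and of the Het to WT difference, 0.18. It went with the divisor (r = -0.42 over 86 genes), so members with small divisors tended to be higher in type 2.

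**Figure D2:**
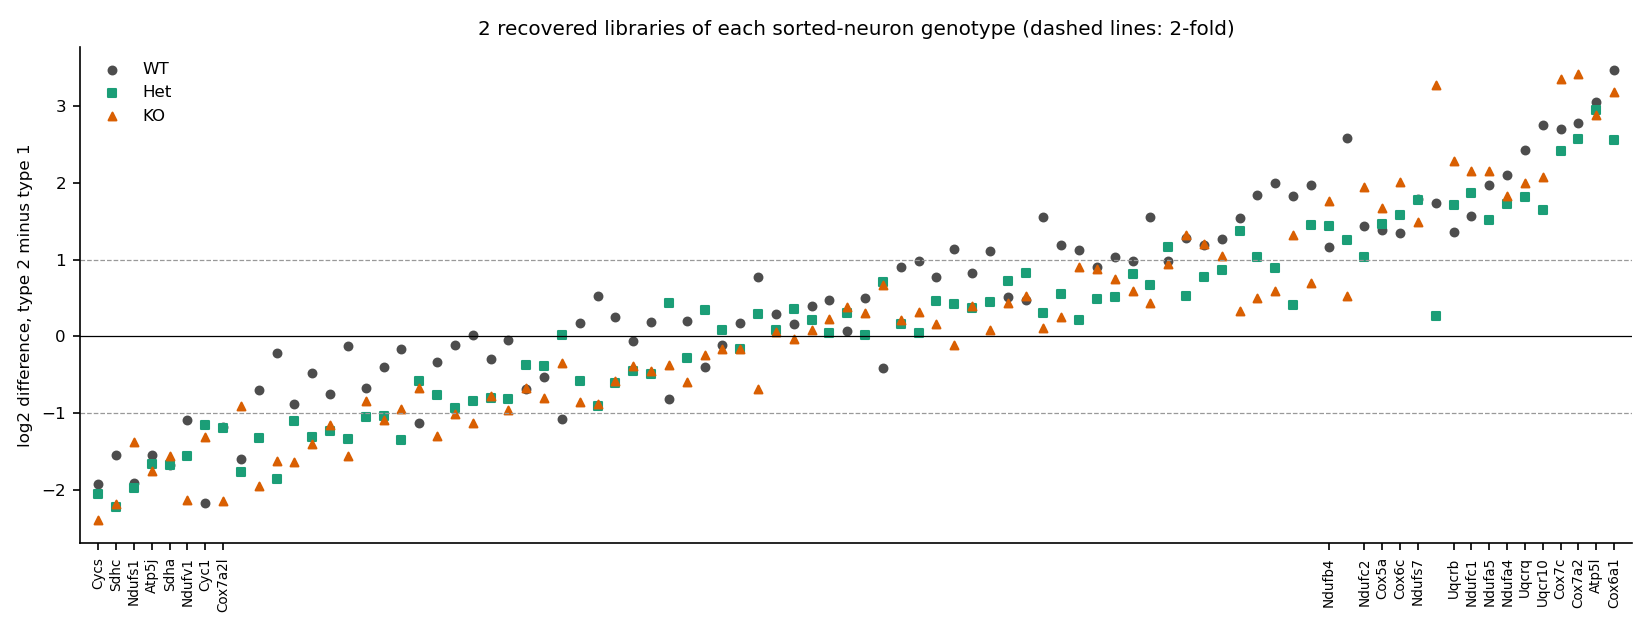
Each column is 1 of 86 genes in the sorted neurons, and each symbol the log2 difference of the type 2 over the type 1 library in 1 genotype, with names for the genes at least 2-fold apart in the same direction in all 3 genotypes. The 3 symbols of a gene lie on the same side of 0 in 71 of the 86. Among all genes the share is 71.1%. Cox6a1, Atp5l, Cox7a2 and Cox7c form the right end and Cycs and Sdhc the left.

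Several isoforms stood in another order or ratio in sorted neurons than in the epithelium. The ATP synthase c subunit, the protein of the rotor ring, is made from 3 genes that encode the same mature protein. In the epithelium Atp5g2 took 76.9% to 82.0% of their summed value in the 6 libraries, Atp5g3 8.20% to 13.3% and Atp5g1 9.29% to 10.5%. In the sorted neurons Atp5g3 took 73.5%, 66.04% and 59.8% of the pooled value in WT, Het and KO, and Atp5g2 16.1%, 24.4% and 30.2%. Atp5g2 was above Atp5g3 in 6 of 6 epithelium libraries, by 5.80- to 10.0-fold, and below it in 6 of 6 recovered neuron libraries, by 1.31- to 5.59-fold. The 2 tables were normalised separately and Atp5g2 has a divisor of 647 against 3860 for Atp5g3, so the order within a table depends on the divisors and the reversal between the tables does not. These shares are a description, with no test. In the labels all 6 epithelium libraries and the KO neuron libraries share the NuGEN Encore kit. The WT neuron libraries have the RiboMinus and ScriptSeq kit, and the Het neuron libraries have both kits. The part of the kit in these shares and in the isoform ratios below was not tested.

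Cox8a and Cox8b shifted too. Cox8a was 2.39 to 5.45 times Cox8b in the epithelium and 98.3, 48.5 and 37.7 times in the pooled WT, Het and KO neurons. Cox8b was 210.1, 516.7, 509.4, 429.9, 411.3 and 251.1 in the epithelium and 23.5, 36.7 and 29.1 in WT, Het and KO neurons. Cox7a1 was 65.3, 116.3, 197.0, 104.3, 108.4 and 27.8 in the epithelium, with Cox7a2 7.58 to 33.1 times higher, and 145.4, 213.8 and 80.2 in the neurons, with Cox7a2 18.8, 14.2 and 29.98 times higher. In KO odor, where the skeletal muscle markers were highest, Cox7a1 was at its lowest, on 9 reads, and Cox8b at its second lowest. The part of muscle in the values of these 2 forms was not tested. Cox6b2, the testis form of Cox6b1, was 19.7 to 56.9 in the epithelium, where Cox6b1 was 28.5 to 77.5 times higher. Ndufa4l2, a relative of Ndufa4 known from hypoxia and from pericytes, was 1.42, 16.9 and 29.5 in WT, Het and KO neurons, where Ndufa4 was 4069.9, 4728.5 and 3734 (no library values could be recovered for Ndufa4l2). The endothelial and pericyte markers summed to 42.5 and 92.5 in the 2 WT neuron libraries, 49.4 and 108.9 in Het and 84.7 and 147.4 in KO, type 1 then type 2; their part in the Ndufa4l2 values was not tested. Cox4i2, Cox6a2, Cox7b2 and Cox8c, other tissue-restricted forms, had no row in either table.

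**Figure D3:**
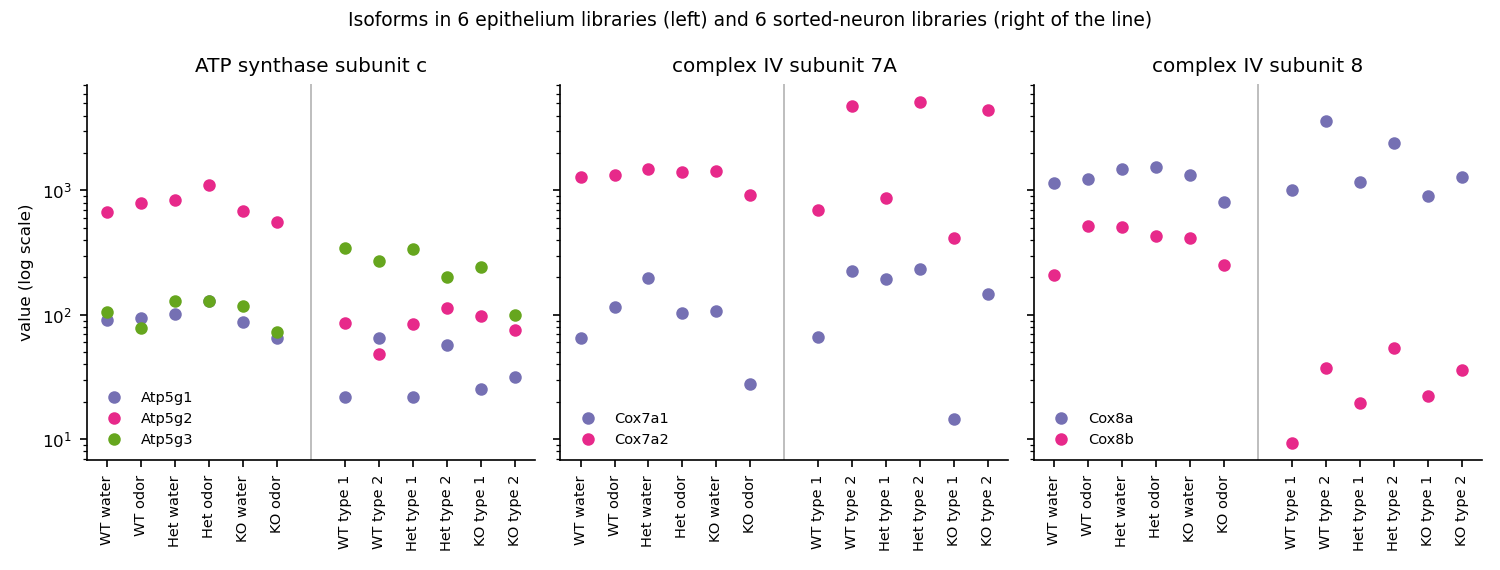
Values (log axis) of the c subunit genes, Cox7a1 and Cox7a2, and Cox8a and Cox8b in the 6 epithelium libraries and, right of the vertical line, in the 6 recovered neuron libraries. Atp5g2 lies above Atp5g3 in every epithelium library and below it in every neuron library, and Cox7a2 is higher in every type 2 than in every type 1 library.

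After odor most members were lower. The comparison asks what an hour of odorants does in the epithelium, with genotype as a block. The median member was 0.20 log2 units lower after odor (all genes: 0.00), with 68 genes lower and 20 higher; 31 were lower in all 3 genotypes (11.9% of all genes were) and 1, Sdha, higher in all 3 (15.6% of all genes). No single member passed the threshold in limma (smallest adjusted p = 0.882), where 0.0137% of all genes did; 10 members, all lower, had an unadjusted p under 0.05, as did 711 of 14602 genes, and a voom fit of the reads called 0 members. The design has 2 residual degrees of freedom, and on simulated data limma found 30% of genes made to differ by 1 log2 unit and 0% at 0.5, so a shift of the size seen here lies below what the test could call for 1 gene. By genotype the median was -0.10 for WT, -0.09 for Het and -0.35 for KO, and without the KO libraries the median over both other genotypes was -0.09.

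The 4 lower members with the smallest p were Ndufa5, Atp5k, Ndufab1 and Ndufa4. Ndufa5, an accessory subunit of complex I, had 73.7 after water and 46.9 after odor for WT, 74.5 and 52.7 for Het, and 89.5 and 57.8 for KO, a difference of -0.59 ± 0.17 (SE). The 3 odor values lay below the 3 water values with no overlap. Atp5k, the e subunit of the ATP synthase, was 929.5 and 704.5 for WT, 1209 and 887.2 for Het and 988.6 and 454.1 for KO (-0.66 ± 0.20), again without overlap. Ndufab1, the mitochondrial acyl carrier protein that also sits in complex I, was 54.3 and 35.8, 53.1 and 27.3, and 58.0 and 44.4 (-0.64 ± 0.21). Ndufa4 was 3668 and 2871, 5447.5 and 3276.5, and 4055 and 2427 (-0.61 ± 0.21). The 4 higher members with the smallest p, Atp5a1, Ndufa11, Ndufb5 and Atp5d, were higher after odor in WT and Het only: Atp5d, the delta subunit of the ATP synthase head, was 98.5 and 144.9 for WT, 99.3 and 159.0 for Het and 111.2 and 84.0 for KO. In Ndufa11, a membrane subunit of complex I, the values were 83.3 and 107.3, 87.5 and 140.2, and 99.9 and 83.5.

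By complex, the median odor difference was -0.23 for complex I accessory subunits (24 of 29 lower), 0.01 for its core subunits (3 of 7 lower), -0.10 for complex II, -0.04 for complex III (7 of 9 lower), -0.19 for complex IV (10 of 12 lower) and -0.22 for the ATP synthase (13 of 17 lower). In WT, Het and KO apart, the median was 0.01, -0.14 and -0.52 for complex IV. For the ATP synthase it was 0.01, -0.14 and -0.30. Among other gene groups of the mitochondrion the median was -0.19 for 22 other assembly factors (19 lower), -0.14 for 76 mitochondrial ribosomal proteins (56 lower), -0.08 for 16 regulators of mitochondrial biogenesis (11 lower), -0.05 for 17 genes of pyruvate oxidation and the citric acid cycle (12 lower) and -0.04 for 14 carriers, pores and import genes (9 lower). The 17 glycolysis genes had a median of 0.20, with 15 higher; by genotype it was 0.16 for WT (11 higher), 0.49 for Het (17 higher) and 0.00 for KO (9 higher). Of these genes Hk2, a hexokinase, had the smallest p, at 19.2 and 70.2 for WT, 34.8 and 59.9 for Het and 35.2 and 37.2 for KO (0.90 ± 0.36; limma, adjusted p = 0.882). The 75 cytosolic ribosomal protein genes had a median of 0.01. Cell type markers moved in the same libraries. Higher after odor were 7 of 8 supporting cell markers (median 0.35), 5 of 6 microvillous cell markers (0.51), 7 of 8 endothelial and pericyte markers (0.41) and 6 of 6 skeletal muscle markers (0.66). Lower were 9 of 12 mature neuron markers (-0.17) and 5 of 6 olfactory ensheathing glia markers (-0.51). Some of these shifts differed by genotype. Summed muscle markers were 36.6 and 20.7 for WT (water, odor), 28.1 and 38.9 for Het, and 65.9 and 403.0 for KO. Mature neuron sums fell for WT (25116 to 18816) and Het (10805 to 6288) but rose for KO (21276 to 28043). Glia sums were 1718 and 599, 1189 and 960, and 649 and 607. Supporting and microvillous cell sums were higher after odor for each genotype. The part of cell content in the odor values was not tested.

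**Figure D4:**
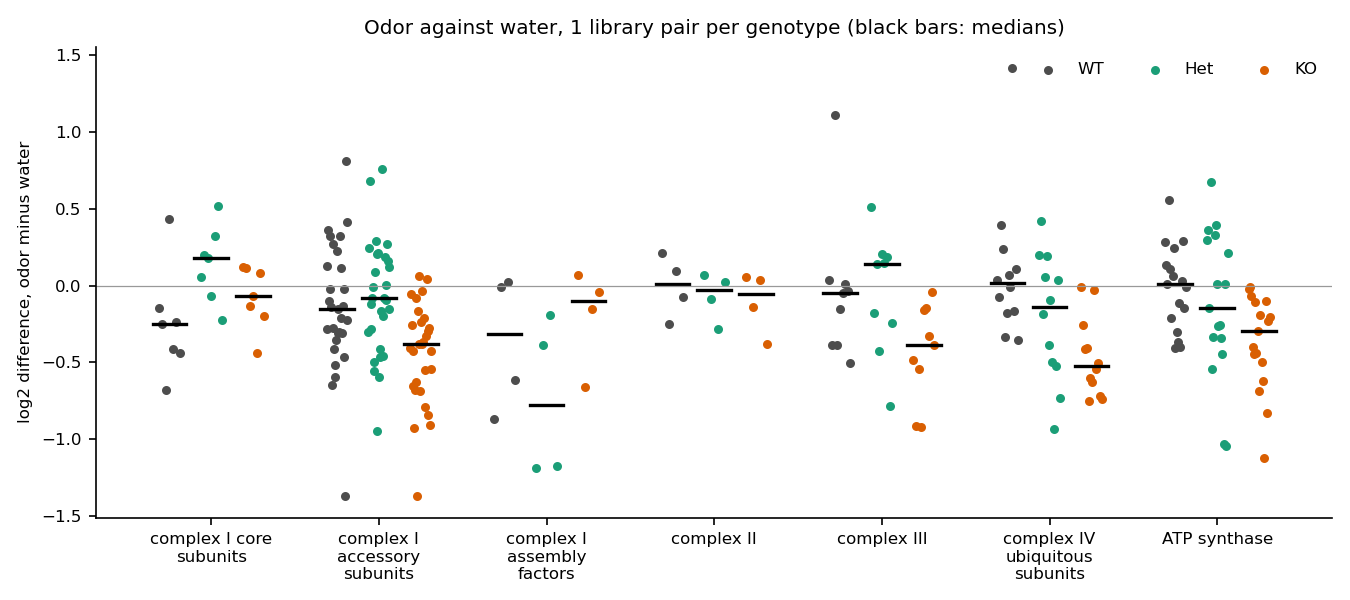
Each point is 1 gene, as the log2 difference of the odor over the water library of 1 genotype, grouped by complex, with black bars at the medians. The KO medians are -0.52 for complex IV, -0.38 for complex III and complex I accessory subunits and -0.30 for the ATP synthase, and none of the 9 complex III genes, the 12 widely expressed complex IV subunits and the 17 ATP synthase genes plotted is above 0 in KO.

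The odor difference in KO was then set against that in WT and Het. In KO 0 of 12 widely expressed complex IV subunits, 0 of 9 complex III genes and 0 of 17 ATP synthase genes were higher after odor, against 6, 3 and 9 in WT and 5, 5 and 8 in Het. The interaction had a median of -0.25 over the 88 genes (24 above 0; all genes: 0.00), -0.29 with WT alone and -0.29 with Het alone as the reference. It rests on 1 KO library pair. No member passed (limma, smallest adjusted p = 0.614), 6 had an unadjusted p under 0.05, all lower in KO, as did 1039 of 14602 genes in either direction, voom called 0 members, and 0% of all genes passed. Ndufs5, an accessory subunit of complex I, had 46.3 and 81.8 for WT (water, odor), 89.1 and 99.6 for Het and 83.3 and 44.3 for KO. Ndufa2, another, was 323.5 and 403.8, 336.2 and 318.1, and 334.4 and 176.1. Atp5o, in the stalk of the ATP synthase, was 143.5 and 175.2, 202.0 and 203.6, and 215.7 and 121.1. In these 3 genes, as in Atp5d, the KO odor library was the lowest of the 6. The opposite pattern was seen in Ndufaf4, an assembly factor (420.1 and 274.8, 360.8 and 159.7, 347.3 and 337.4), and in the sparsely read Ndufaf1, Cox6b2 and Atp5l-ps1. The KO odor library also had the highest mature neuron markers (28043) and muscle markers (403.0), and the lowest basal cell markers of the 6 (96.9 against 135.2 to 282.8); the part of cell content in the interaction was not tested.

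Between genotypes, no member differed past the threshold in the epithelium. KO and Het were each compared with WT in the same fit, with treatment as a block, and share the WT libraries. For KO the median member difference was -0.03 log2 units (39 higher, 49 lower), with 0 members at an unadjusted p under 0.05 and 0% of all genes called (limma, smallest member adjusted p = 1; voom called 0); on the unadjusted scale 326 of 14602 genes were under 0.05. The 2 treatments went apart: the median was 0.11 in water (61 of 88 higher) and -0.15 in odor (23 higher). Over both treatments 19 members were lower in KO (21% of all genes) and 15 higher (20.2% of all genes), near the share of all genes. Of the cell type markers, 6 of 6 for skeletal muscle were higher in KO (median 2.41), and 7 of 7 for immature neurons (-0.38) and 6 of 6 for ensheathing glia (-0.58) were lower; their part was not tested. Atp5s, a coupling factor associated with the ATP synthase, was 170.3 and 153.8 in WT (water, odor) and 119.1 and 101.3 in KO (-0.56 ± 0.27), Atp5l-ps1 was 97.5 and 82.0 against 53.0 and 75.5, and Ndufc1 was 78.025 and 76.9 against 65.7 and 53.5. Sdhc, a membrane anchor of complex II, was 208.2 and 222.0 in WT and 261.7 and 267.8 in KO (0.30 ± 0.18). Ndufb3 was 436.1 and 352.2 in WT and 535.3 and 410.4 in KO, which overlap.

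Het epithelium had more members above WT. The median difference was 0.23 log2 units (all genes: 0.02), 70 of 88 genes were higher, and 51 were higher in both treatments (30.1% of all genes) and 7 lower in both (28.7% of all genes): Atp5l-ps1, Cox4nb, Ndufab1, Ndufaf2, Ndufaf4, Ndufb2 and Ndufb5. The medians were 0.18 in water and 0.19 in odor. No member passed in limma (smallest adjusted p = 0.706; 0% of all genes passed, voom called 0), and 4 members had an unadjusted p under 0.05, all higher, with 977 of 14602 genes under 0.05. Ndufb3, a membrane accessory subunit of complex I, was 436.1 and 352.2 in WT and 675.0 and 506.5 in Het (0.58 ± 0.17), without overlap. Atp5j2, the f subunit of the ATP synthase, was 92.5 and 85.6 in WT and 157.2 and 124.3 in Het (0.65 ± 0.21). Cox7a2l, which helps join complexes III and IV into supercomplexes, was 306.0 and 304.0 against 512.7 and 362.4, and Ndufaf1 was 13.3 and 7.07 against 32.9 and 14.2. Those lower in Het included Ndufb2 (43.1 and 38.7 against 35.0 and 25.2) and Ndufaf4 (420.1 and 274.8 against 360.8 and 159.7).

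All 4 complex II genes, 8 of 9 complex III genes, 11 of 12 complex IV genes and 14 of 17 ATP synthase genes were higher in Het. The 75 cytosolic ribosomal protein genes had a larger median, 0.29, with 71 higher, and the 17 glycolysis genes 0.22, with 16 higher. The median was 0.13 for mitochondrial ribosomal proteins (52 of 76 higher), 0.13 for carriers, pores and import genes (11 of 14 higher), 0.07 for the citric acid cycle group, 0.01 for other assembly factors and -0.05 for regulators of mitochondrial biogenesis. Ppargc1a, a coactivator of mitochondrial genes, was 148.8 and 166.1 in WT and 108.6 and 83.4 in Het (-0.72 ± 0.21; limma, adjusted p = 0.706). The Het libraries were the 2 with the lowest mature neuron markers (10805 and 6288 against 18816 to 28043), and 12 of 12 of these markers were lower in Het (median -1.05). Of the macrophage markers 7 of 7 were higher (0.85), as were 6 of 6 microvillous cell markers (0.34) and 6 of 6 dividing progenitor markers (0.26); the part of cell content in the Het values was not tested.

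In sorted neurons most members were lower in KO. In the pooled values, which carry no SD and no test, 69 of 87 members were lower and 18 higher, with a median of -0.38 log2 units against -0.13 for all genes. Most genes were lower too, 8430 of 14738, with 6308 higher. At 1.5-fold, 20 were lower in KO (15.9% of all genes) and 2 higher (25.4% of all genes), and at 2-fold 1 was lower (2.84%) and 2 higher (17.5%). The 2 higher were Ndufb4 and Ndufa4l2, and the 1 lower Cox8a. Centred on the median of all genes, the 1.5-fold lower count was 7. The 2 library types gave different sizes: the median was -0.19 in type 1, where all genes had -0.20, and -0.54 in type 2, where all genes had -0.12. Members lower in KO in both types numbered 50 of 86 (43.9% of all genes) and members higher in both 8 (26% of all genes). In limma on the recovered libraries with type as a term 0 members and 0% of all genes passed (smallest adjusted p = 0.146), and 18 members had an unadjusted p under 0.05, 17 of them lower, with 3305 of 13369 genes under 0.05; without the term the smallest adjusted p was 0.974, and 0 members were under 0.05 unadjusted.

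Cox8a had pooled values of 2312.5 (WT), 1781 (Het) and 1095 (KO). By library it was 1008 and 3618 in WT (type 1, type 2) and 906.3 and 1284 in KO, so that the difference lay in type 2 (-1.49, against -0.15 in type 1). Ndufs8 was 209.6 and 1260 in WT and 315.5 and 455.5 in KO, higher in KO in type 1 (0.59) and lower in type 2 (-1.47), and Ndufaf3, an assembly factor, was 90.7 and 363.9 against 93.3 and 140.4. These are the largest pooled differences among the lower members but come from type 2, and for Ndufs8 and Ndufaf3 (0.04 and -1.37) the types have opposite signs. Others were lower in both types. Atp5g3 was 342.2 and 272.6 in WT and 243.3 and 98.98 in KO (-0.97 ± 0.26 with the type term; limma, adjusted p = 0.146). Atp5l was 107.0 and 891.8 in WT and 71.3 and 528.0 in KO (-0.67 ± 0.18). Cox7a1 was 67.0 and 223.8 in WT and 14.6 and 145.8 in KO, where the type 1 value rests on fewer than the 9 reads of its lowest epithelium library. By complex, the 7 core subunits of complex I and the 4 complex II genes were all lower in the pooled KO value (medians -0.53 and -0.48). So were 15 of 17 ATP synthase genes (-0.39). The types differed here too. In type 1 and type 2 the medians were -0.22 and -0.92 for the core subunits, -0.25 and -0.89 for complex II and -0.25 and -0.60 for the ATP synthase. All genes had -0.20 and -0.12. In type 1, 2 of the 7 core subunits and 6 of the 17 ATP synthase genes were higher in KO. Complex III had 6 of 9 genes lower (-0.24, and -0.01 with the type term), complex I accessory subunits 22 of 29 (-0.23) and the widely expressed complex IV subunits 8 of 12 (-0.14), close to the -0.13 of all genes.

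Ndufb4, an accessory subunit in the membrane arm of complex I, went the other way. It was 210.5, 377.4 and 425.6 in WT, Het and KO neurons; by library 130.0 and 291.0 for WT, 203.7 and 551.2 for Het and 193.0 and 658.2 for KO. Within each type both mutant libraries lay above WT, by 0.65 (Het) and 0.57 (KO) log2 units in type 1 and 0.92 and 1.18 in type 2 (KO: 0.87 ± 0.21; limma with the type term, adjusted p = 0.146). In the epithelium Ndufb4 was 459.5, 372.3, 435.8, 389.4, 405.0 and 313.4, with no such order. Uqcrb (1885 in WT, 2553 in KO) was higher in KO in type 2 only, and Atp5g2 (67.3 and 86.4) in both types.

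Other energy genes were lower in KO neurons as well, where the pooled median of all genes was -0.13 and 8430 of 14738 genes were lower. The pooled medians were -0.53 for 14 carriers, pores and import genes (12 lower) and -0.46 for 17 glycolysis genes (14 lower). For 17 genes of pyruvate oxidation and the citric acid cycle the median was -0.38 (15 lower). It was -0.25 for 75 mitochondrial ribosomal proteins (60 lower) and -0.06 for 75 cytosolic ribosomal proteins. The library types differed. In type 1 and type 2 the medians were -0.18 and -0.93 for carriers, -0.23 and -0.56 for glycolysis and -0.12 and -0.66 for the citric acid cycle group. They were -0.11 and -0.49 for mitochondrial and 0.27 and -0.39 for cytosolic ribosomal proteins. All genes had -0.20 and -0.12. Slc25a3, the phosphate carrier that supplies the ATP synthase, had the smallest p of the carriers (-0.86 ± 0.18; limma with the type term, adjusted p = 0.146). Markers moved in the same libraries: the 12 mature neuron markers summed to 91810 and 100270 for WT, 100210 and 81217 for Het and 77176 and 55602 for KO, type 1 then type 2, with Omp at 3517 in the type 2 KO library and 10344 to 17329 in the 5 others. The 4 measured basal cell markers summed to 6.09 to 22.2 in WT and Het and to 95.1 and 59.0 in KO. Their part in the KO values was not tested, and the kit differs with the genotype.

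**Figure D5:**
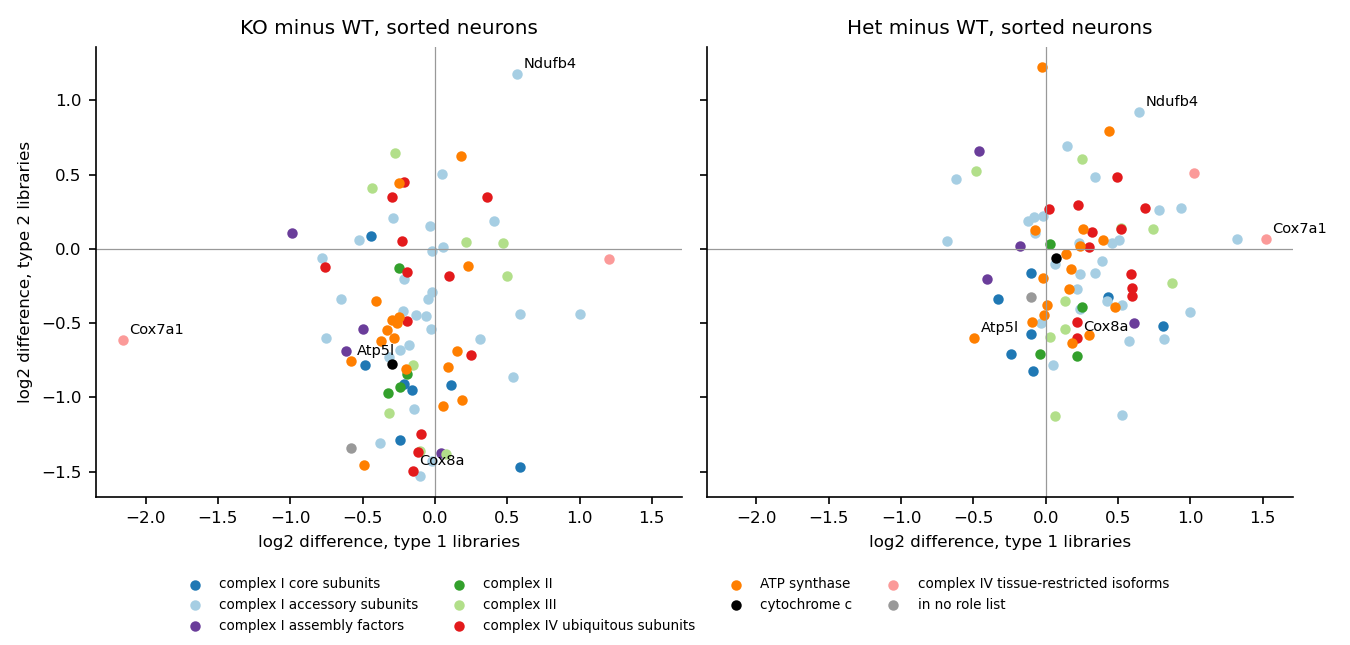
Each point is 1 of 86 genes in the sorted neurons, with the log2 difference from WT in the type 1 libraries on the x axis and in the type 2 libraries on the y axis, for KO (left) and Het (right), coloured by complex. Points of KO extend farther below 0 in type 2 (median -0.54) than to the left in type 1 (-0.19), and Ndufb4 lies above 0 on both axes in both panels.

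Het neurons differed less from WT and not in 1 direction. The pooled median was 0.04 log2 units (48 of 87 higher; all genes: -0.02), 1 member was at least 1.5-fold lower (7.65% of all genes) and 4 higher (14.8% of all genes), and at 2-fold 0 were lower (2.5%) and 1 higher (6.89%), Ndufa4l2. The median was 0.22 in type 1 and -0.16 in type 2, where all genes had -0.03 and -0.04. In both types 13 members were lower (29% of all genes) and 26 higher (22.9% of all genes). In limma with the type term 0 members and 0% of all genes passed (smallest adjusted p = 0.827), with 4 members at an unadjusted p under 0.05 and 803 of 13369 genes. Atp5l was lower in both types (107.0 and 891.8 in WT, 75.9 and 587.4 in Het), the 1 member past 1.5-fold. For Ndufs3 (104.9 and 196.2 in WT, 98.5 and 110.8 in Het) and Uqcrfs1, the Rieske iron-sulfur protein of complex III (1235 and 1105 in WT, 1293 and 507.0 in Het), the larger difference was in type 2. By complex, 6 of 7 core subunits of complex I were lower in the pooled Het value (median -0.33) and 9 of 12 complex IV subunits higher (0.17). Atp5s was 143.25 and 199.3 in WT and 194.6 and 345.9 in Het, and Cox8b 9.29 and 37.8 in WT and 19.5 and 54.0 in Het, higher in both types. In type 1 the Cox8b values of WT and Het rest on the same small number of reads, under library factors of 1.19 and 0.568. That type 1 difference is the ratio of the factors. Of the 5 members past 1.5-fold in either direction, 4 have library values, and in each of those 4 both types had the same sign.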

How the data were processed

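RNA was measured in 12 of the 33 samples; the 21 others were not analysed here. The deposited values are named RPKM by the authors; per the submitters' processing notes, tools of the series include Bowtie2 2.1, STAR 2.3.0, Picard 1.64, featureCounts and DESeq, and the builds mm9 and NCBIM37, with no roles given. All 14613 epithelium genes gave whole reads (relative tolerance 1e-06) after a whole-number divisor and a factor per library were found, a factor that was 0.973 to 1.01 times a median-ratio size factor (0.934 to 1.09 times in the sorted neuron libraries). The pooled sorted neuron values of 13369 genes split into 2 libraries (tolerance 1e-11, a single solution for at least 99.98% of genes); the labels of the recovered libraries are arbitrary and tie to no replicate number. This split, the library types and their fits were added after seeing the data.

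limma 3.58.1 (R 4.3.3) was fitted to log2(value + 0.5) of the 14602 genes at 0.5 or more in at least 2 libraries, two-sided and with the trend option of its empirical Bayes step; p-values were adjusted over all genes by Benjamini-Hochberg, with a threshold of 0.05. All 88 members passed this filter. There is 1 library per genotype and treatment, so a p-value here reflects the spread of these libraries alone, which may be technical. On simulated KO and WT neuron libraries (13369 genes) the fit with the library type called 18% of genes made to differ by 1 log2 unit, and the fit without it 0%. The pooled columns are the authors' values, without SD or n. Other scalings, pseudocounts, filters, voom and left-out libraries were tried.

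Named were the highest and lowest member of each complex, the isoform families, the 4 members with the smallest p (epithelium) or largest fold (neurons) in each direction, members of 1 table only, and genes with the smallest p of related lists; other members with values were chosen after these were seen, and 1 member under this rule is not reported here. The members and lists were chosen with earlier results of these data known. A fold change is on the log2(value + 0.5) scale, which understates changes of low genes.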

Additional observations from a re-analysis of the deposited data

Results flagged for a closer look

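The KO to WT difference of the median member in the epithelium had opposite signs in the 2 treatments, 0.11 log2 units after water and -0.15 after odor, with 1 library per genotype and treatment; the difference in effect was not tested for the median. The Het to WT difference of the median member in sorted neurons had opposite signs in the 2 library types, 0.22 in type 1 and -0.16 in type 2, with 1 library per genotype and type; this difference was not tested either.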

How the results depend on the processing

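No member passed the threshold in any alternative run for the 4 epithelium comparisons. For odor against water the number of genes past it, 2, became 1 with median-ratio scaling, 0 without the mean-variance trend, 6 with voom, 4 without both WT libraries, 0 without both Het libraries, 0 without both KO libraries and 1 without the genotype block. The KO to WT median in the epithelium was 0.11 in the water libraries alone. In sorted neurons the members at least 1.5-fold higher in KO numbered 1 in the recovered libraries, 1 with the library type as a term and 4 in type 1 alone. Those at least 1.5-fold lower numbered 11 with median-ratio scaling of the recovered libraries, 11 with that scaling and the type term, 7 in type 1 alone, 41 in type 2 alone and 7 when centred on the median of all genes. For Het, 0 were lower in the recovered libraries under either scaling, with or without the type term, 2 in type 1 alone, 13 in type 2 alone and 0 when centred; 7 were higher in the recovered libraries under either scaling, with or without the type term, and 16 in type 1 alone. Leaving out 1 recovered library at a time gave 21 to 41 members lower and 1 to 20 higher in KO, and 0 to 23 lower and 7 to 30 higher in Het. In these fits a lone library is assumed to vary like the others. The causes were not tested. The members' median changed sign in 3 of 78 alternatives: for KO in the epithelium in water alone, as given, and for Het neurons from 0.04 to -0.16 in type 2 alone and -0.14 without the type 1 WT library. Of 600 values for single members, 53 moved by more than their spread. The spread was compared only where a run gave no p-value. The other 547 moved by less or, where both runs gave a p-value, kept their sign and did not newly pass the threshold. Of the 600 values, 20 changed sign. No paired analysis was possible because no replicate number is shared between groups in these columns; the odor fit blocks on genotype and the added neuron fit on library type instead. Depth limits the 13 members with under 100 reads in an epithelium library. The recovered neuron libraries were not part of that count, and Cox7a1 and Cox8b have fewer reads in some of them than in any epithelium library.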
